A study of Mus musculus with 6 samples.

Results

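The cytosolic phospholipase A2 group IV family (cPLA2) was examined in the prefrontal cortex of *Pla2g4e* knockout (KO) and wild-type (WT) mice. Its 6 genes, *Pla2g4a* to *Pla2g4f*, were taken by symbol from the 56923 genes in the count tables. All 6 were found, and 4 of them had enough fragments to be tested. The series holds 3 samples of each genotype, and the polyadenylated RNA of each sample was sequenced as a strand-specific library. The study describes the KO mouse as C57BL/6N-A tm1Brd Pla2g4e tm2a, a constitutive line with LacZ inserted in exon 2 of *Pla2g4e*. The insert is a trapping element that captures the transcript by splicing, and a null allele is the study's prediction. The controls of the RNA-seq are given as WT mice. Age, sex, litter and batch are not in the labels, and mice of both sexes were used in the study. Nothing states that the samples of a group came from separate animals, so p-values measure the spread between these samples.

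Group IV enzymes act inside the cell on membrane phospholipids, where they cleave a fatty acid from the glycerol backbone or pass it on to another lipid. Most members carry a calcium-binding C2 domain that brings them to membranes when calcium rises. *Pla2g4a* encodes cPLA2 alpha, which releases arachidonic acid, the precursor of prostaglandins and leukotrienes. *Pla2g4e* encodes cPLA2 epsilon, a calcium-dependent N-acyltransferase that makes N-acylphosphatidylethanolamine (NAPE), the precursor of N-acylethanolamines (NAEs) such as anandamide. *Pla2g4c* encodes cPLA2 gamma, which lacks the C2 domain and does not need calcium. *Pla2g4b*, *Pla2g4d* and *Pla2g4f* encode cPLA2 beta, delta and zeta, and cPLA2 delta is best known from skin.

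Library totals ranged from 11792463 to 14594230 fragments. Markers of excitatory cortical neurons (7 of 7), GABA interneurons (6 of 6), astrocytes (6 of 6) and oligodendrocytes (6 of 6) were all detected. Y-linked transcripts summed to 182 to 190.3 CPM (counts per 1000000 fragments) in 4 libraries. In the remaining pair, the library labelled WT replicate 1 and KO replicate 1, the sum was 0.157 CPM or less. KO replicate 1 also stood apart in olfactory bulb markers, whose 4 genes summed to 163 CPM there and to 11.4 to 42.2 CPM in the other 5 libraries. WT replicate 2 stood apart in 1 choroid plexus marker, *Ttr*, at 26.8 CPM there and 0.251 to 2.12 CPM elsewhere. The 4 choroid plexus markers summed to 32.7 CPM there and to 4.998 to 7.69 CPM elsewhere. The other markers did not set this library apart. *Kl* was at 5.07 CPM there and 4.995 CPM in KO replicate 3, *Folr1* was at 0.082 CPM, and *Kcnj13* was lowest there at 0.736 CPM. By limma-voom, 0 of 19084 tested genes (0%) passed an adjusted p threshold of 0.05 for KO against WT, while 1492 (7.82%) were under 0.05 before adjustment. DESeq2 called 1 gene at the adjusted threshold, and limma-voom with Y-linked expression as a covariate called 22.

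In the GRCm39 coordinates of the count tables, 4 of the 6 genes lay together on chromosome 2, in the order *Pla2g4b*, *Pla2g4e*, *Pla2g4d* and *Pla2g4f*, within 280.749 kb. *Pla2g4b* was on the plus strand at chr2:119863898-119873511. *Pla2g4e* followed at chr2:119996893-120075816 on the minus strand, after a gap of 123.381 kb. *Pla2g4d* at chr2:120096076-120119678 and *Pla2g4f* at chr2:120130438-120144646 were on the same strand as *Pla2g4e*, after gaps of 20.259 kb and 10.759 kb with no other gene between them. *Pla2g4a* stood alone at chr1:149705369-149837041 on the minus strand, and *Pla2g4c* at chr7:13058580-13094597 on the plus strand. Between *Pla2g4b* and *Pla2g4e* there was 1 other gene.

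**Figure D1:**
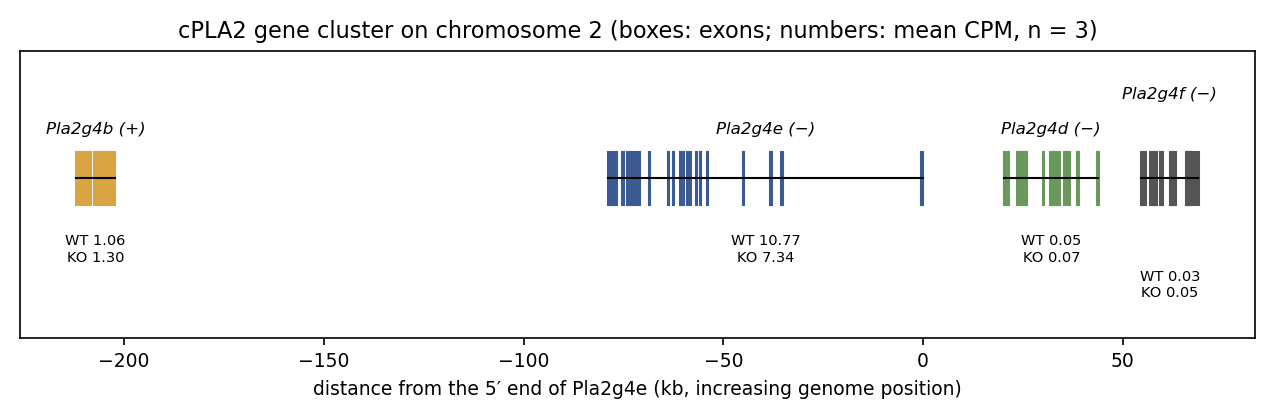
Map of the chromosome 2 genes drawn to scale, with the distance from the 5′ end of *Pla2g4e* in kb on the x axis, exons as boxes and the mean CPM of the 3 WT and 3 KO libraries under each gene. *Pla2g4e*, at 10.8 CPM in WT and 7.34 CPM in KO, lies beside *Pla2g4d* and *Pla2g4f*, which had at most 2 fragments in any library.

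How far fragments of one member could be counted for another was read from the sequences, in the GENCODE transcripts of GRCm38. Between members, coding sequences were 55.0% to 62.6% identical, and the longest run shared by any pair was 17 bases. Of the 18 internal exons of *Pla2g4e*, 12 recurred in the same order with the same length in *Pla2g4d*, 11 in *Pla2g4f*, 9 in *Pla2g4b*, 5 in *Pla2g4a* and 1 in *Pla2g4c*. The study's text places the LacZ element in exon 2 of *Pla2g4e* without naming a transcript or coordinates. Exon 2 was here assumed to be that of transcript *Pla2g4e-201*. The second exon is a 73-base coding exon in this transcript and in *Pla2g4d* and *Pla2g4f*. It is shown for the 3 genes as the site of the allele under that assumption. Capitals mark the 19 positions (26.0%) at which all 3 have the same base, and *Pla2g4e* shared 35 positions with *Pla2g4d* and 36 with *Pla2g4f*.
*Pla2g4e*, chr2:120200213-120200285, minus strand, GRCm38: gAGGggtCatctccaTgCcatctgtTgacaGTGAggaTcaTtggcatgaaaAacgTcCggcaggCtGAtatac
*Pla2g4d*, chr2:120284104-120284176, minus strand, GRCm38: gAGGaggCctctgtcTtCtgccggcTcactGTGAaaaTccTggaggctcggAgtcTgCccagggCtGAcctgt
*Pla2g4f*, chr2:120313047-120313119, minus strand, GRCm38: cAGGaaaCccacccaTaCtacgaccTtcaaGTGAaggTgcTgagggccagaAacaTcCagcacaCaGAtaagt

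A 223-base coding exon was present in all members but *Pla2g4c*. It is exon 9 of *Pla2g4a* and exon 13 of *Pla2g4b*, *Pla2g4d*, *Pla2g4e* and *Pla2g4f*. It is given below for the 3 members with the most fragments, to show how different the counted RNAs are where their exons match in length. Capitals mark the 63 positions (28.3%) that are the same in all 3. *Pla2g4e* and *Pla2g4a* had the same base at 100 of 223 positions (44.8%), and *Pla2g4e* and *Pla2g4b* at 108 (48.4%).
*Pla2g4e*, chr2:120176722-120176944, minus strand, GRCm38: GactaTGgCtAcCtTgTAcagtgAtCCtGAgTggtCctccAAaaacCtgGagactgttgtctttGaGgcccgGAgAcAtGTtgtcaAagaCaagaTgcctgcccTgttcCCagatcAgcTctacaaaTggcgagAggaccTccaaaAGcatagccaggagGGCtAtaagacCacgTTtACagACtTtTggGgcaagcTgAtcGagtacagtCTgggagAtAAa
*Pla2g4a*, chr1:149872538-149872760, minus strand, GRCm38: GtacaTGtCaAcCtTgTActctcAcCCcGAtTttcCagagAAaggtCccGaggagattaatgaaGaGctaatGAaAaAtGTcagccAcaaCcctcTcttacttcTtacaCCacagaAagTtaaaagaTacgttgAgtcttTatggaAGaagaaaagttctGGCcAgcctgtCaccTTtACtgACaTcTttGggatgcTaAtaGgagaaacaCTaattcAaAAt
*Pla2g4b*, chr2:120038863-120039085, plus strand, GRCm38: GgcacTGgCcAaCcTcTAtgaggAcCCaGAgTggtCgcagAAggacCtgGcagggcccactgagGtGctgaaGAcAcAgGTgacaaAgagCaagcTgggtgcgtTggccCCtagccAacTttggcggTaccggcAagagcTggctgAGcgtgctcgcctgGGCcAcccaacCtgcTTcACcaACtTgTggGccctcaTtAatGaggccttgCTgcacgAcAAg

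*Pla2g4c* had a much closer relative outside the family. The pseudogene *Pla2g4c-ps* was 91.5% identical to *Pla2g4c* over 1357 aligned bases, and the longest run common to both was 91 bases. This run is shown because a fragment inside it maps to both genes and was not counted for either, which can lower the count of *Pla2g4c*.
Shared by *Pla2g4c* and *Pla2g4c-ps*, from the GRCm38 transcript of *Pla2g4c*, plus strand: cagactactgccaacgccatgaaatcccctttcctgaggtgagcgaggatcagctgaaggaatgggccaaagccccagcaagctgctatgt

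*Pla2g4e* (ENSMUSG00000050211.15), the targeted gene, was counted in all 6 libraries. KO replicates 1 to 3 had 88, 97 and 102 fragments, or 5.94, 8.12 and 7.96 CPM with TMM scaling factors (trimmed mean of M-values). The libraries labelled WT replicates 1 to 3 had 100, 138 and 168 fragments, or 7.83, 11.3 and 13.2 CPM. KO replicate 1 was the lowest of the 6 and WT replicates 2 and 3 were the highest, but the library labelled WT replicate 1 lay between the KO values, so that the groups overlapped. Directions given here follow the labels. For this line, the study reports no Pla2g4e protein by Western blot of KO hippocampus, and immunostaining in brain sections of WT mice alone. Neither measure is given for the sequenced samples.

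The mean level of *Pla2g4e* was 7.34 ± 1.21 CPM in the 3 KO libraries and 10.8 ± 2.71 CPM in the 3 WT libraries (mean ± SD, as for all members). The log2 fold change of KO over WT was -0.55 (SE 0.21, 95% interval -0.99 to -0.10). On the linear scale KO was at 68.5% of WT, with an interval of 50.3% to 93.3%. The limma-voom p was 0.0205 before and 0.635 after adjustment, so *Pla2g4e* did not pass the threshold. It was the only one of the 4 tested members with an unadjusted p-value under 0.05, and 657 of all genes tested (3.44%) were lower in KO at that level. Without each library in turn, this count ran from 318 (without KO replicate 1) to 1211 (without WT replicate 3). By unadjusted p-value *Pla2g4e* ranked 553 among the 19084 genes.

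Both *Pla2g4e* libraries that were low for their group were the ones without Y-linked transcripts. Among the 4 libraries with such transcripts, the KO libraries were at 7.96 and 8.12 CPM and the WT libraries at 11.3 and 13.2 CPM. The mean of KO there was 65.7% of that of WT. How many of all genes separate in these 4 libraries was not counted, so the separation is no result about *Pla2g4e*. In the other 2 libraries KO was at 5.94 CPM and WT at 7.83 CPM, or 75.9%, with no replicate on either side. In the fit of those 4 libraries alone, an alternative chosen after seeing the data, the log2 fold change was -0.60, with a limma-voom p of 0.00299 before and 0.999 after adjustment. Over all 17 alternatives the adjusted p-value of *Pla2g4e* ranged from 0.261 to 0.999. The log2 fold change was -0.39 (unadjusted p-value 0.0923) without KO replicate 1, -0.50 (0.0557) without WT replicate 2 and -0.39 (0.0943) without WT replicate 3, so the unadjusted call was lost without any of these libraries. It was -0.76 (0.00113) without the library labelled WT replicate 1 and -0.54 (0.00204) with Y-linked expression as a covariate. Excitatory neuron markers, whose 7 genes were all detected, summed to 1603 to 2016 CPM in KO and 1937 to 2225 CPM in WT. The lowest sum was in KO replicate 1 and the highest in the library labelled WT replicate 1. The part of these neurons in the level of *Pla2g4e* was not tested, and in tissue fewer cells of a type and less RNA per cell cannot be told apart.

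The tables sum fragments over all exons of a gene, so RNA from before and after the trapping element was not separated. The file's exon model of *Pla2g4e* holds 21 exon blocks and 6960 bases. Exon 2, assumed as above, is block 4 of this model (chr2:120030694-120030766 in GRCm39). Downstream of it lie 6020 bases (86.5%) in 17 blocks. The counts of the KO libraries therefore show RNA over the exons of the gene, without showing where along the gene it lay. A second gene model, *Gm13997*, shares 153 of the 6960 bases on the same strand and had at most 1 fragment in a library.

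**Figure D2:**
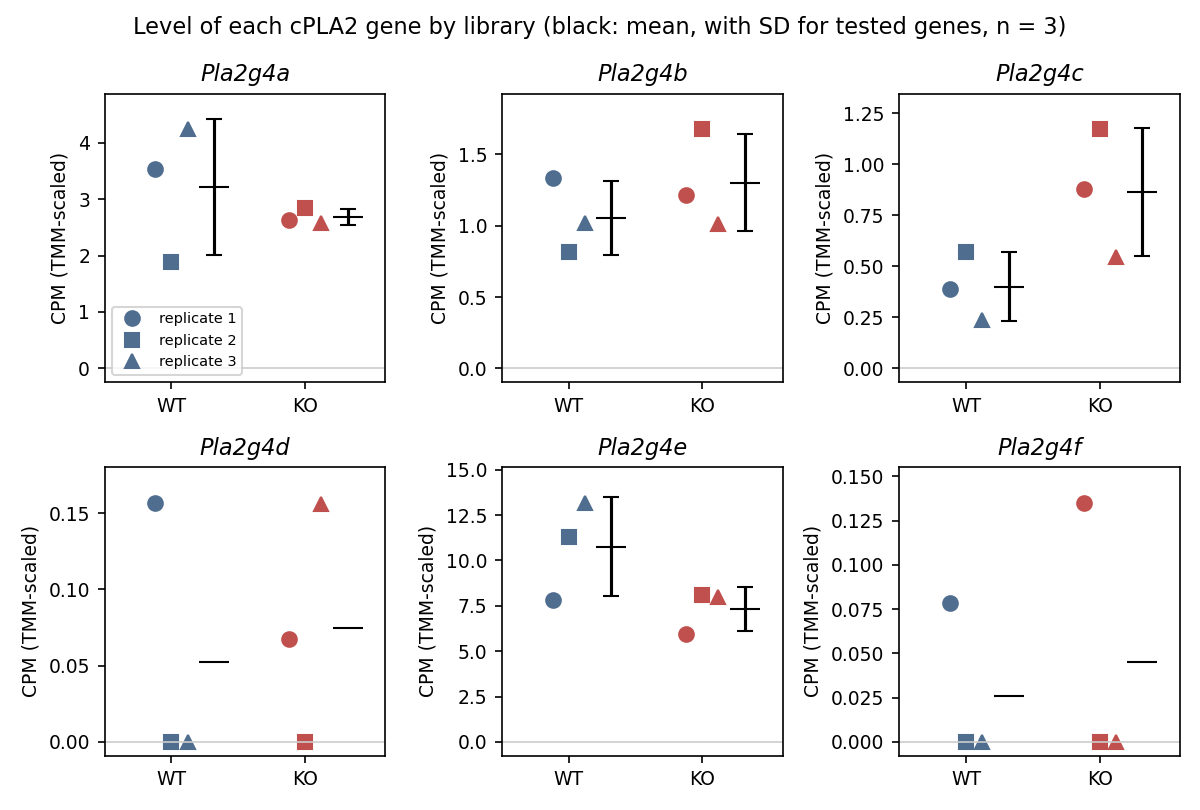
TMM-scaled CPM of each member in the 3 WT and 3 KO libraries, with 1 symbol per replicate number, the mean as a black line and its SD for the 4 tested genes, on a separate y axis for each gene. The KO libraries of *Pla2g4e* sit between 5.94 and 8.12 CPM and those labelled WT between 7.83 and 13.2 CPM, and in none of the 6 genes are the groups fully apart.

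*Pla2g4a* (ENSMUSG00000056220.15), the arachidonate-releasing member, had 39, 34 and 33 fragments in KO replicates 1 to 3, or 2.63, 2.85 and 2.58 CPM. The libraries labelled WT replicates 1 to 3 had 45, 23 and 54 fragments, or 3.53, 1.88 and 4.24 CPM. The KO values were close together and lay inside the range of the WT values, which spread from the lowest to the highest of the 6 libraries. The mean was 2.69 ± 0.142 CPM in the KO and 3.21 ± 1.21 CPM in the WT libraries. The log2 fold change was -0.19 (SE 0.29, 95% interval -0.83 to 0.45), with an adjusted p of 0.871 by limma-voom. The interval leaves room for KO levels from 56.2% to 136% of WT. The direction turned without WT replicate 3, when the log2 fold change was 0.04, and it was -0.52 without WT replicate 2.

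The genes whose level varied over the libraries most like that of *Pla2g4a* were then looked up. Among 2913 genes with a mean of at least 5 CPM and enough variation of their own, the 3 whose log2 CPM deviated most like that of *Pla2g4a* over the 6 libraries were *Vwf*, *Lyz2* and *Sox21*. Their root mean square differences from it were 0.09, 0.15 and 0.15 on the log2 scale. *Vwf*, which encodes von Willebrand factor and is made by endothelial cells, was at 20.3, 24.9 and 22.7 CPM in KO and at 25.3, 16.0 and 31.8 CPM in the libraries labelled WT. It had the same lowest and highest library as *Pla2g4a*. The 6 endothelial markers, all detected, summed to 207 to 222 CPM in KO and 198 to 245 CPM in WT, with the lowest sum in WT replicate 2 and the highest in WT replicate 3. Single markers did not all follow the sum. *Cdh5* and *Slco1a4* were lowest in WT replicate 2, *Cldn5* and *Flt1* in KO replicate 1, and *Pecam1* and *Ly6c1* in KO replicate 2. The 5 leptomeningeal markers, also all detected, were at 75.5 to 82.4 CPM in KO and at 109, 47.2 and 65.0 CPM in the libraries labelled WT replicates 1 to 3. The part of vessels or meninges in the level of *Pla2g4a* was not tested.

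The same search for *Pla2g4e*, among 2098 genes, gave *Arl10*, *Pdzrn4* and *Erg*, with root mean square differences of 0.14, 0.15 and 0.16 on the log2 scale. *Arl10*, a small GTPase of the ARF-like family, was at 5.74, 9.37 and 8.12 CPM in KO and at 8.15, 10.6 and 10.98 CPM in the libraries labelled WT. *Erg* encodes an endothelial transcription factor and stood at 4.19, 5.27 and 4.37 CPM in KO and at 4.62, 5.97 and 6.75 CPM in WT. KO replicate 1 was the lowest library for *Pla2g4e*, *Arl10*, *Pdzrn4* and *Erg* alike. Such likeness over 6 libraries is a description of these samples, since all genes share the same libraries.

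*Pla2g4c* (ENSMUSG00000033847.16), the calcium-independent member, had 13, 14 and 7 fragments in KO replicates 1 to 3, or 0.878, 1.17 and 0.546 CPM. The libraries labelled WT had 5, 7 and 3 fragments, or 0.392, 0.573 and 0.235 CPM. The libraries KO replicates 1 and 2 were above all others, while KO replicate 3 lay just under the highest WT library. The mean was 0.865 ± 0.313 CPM in the KO and 0.400 ± 0.169 CPM in the WT libraries. The log2 fold change was 1.05 (SE 0.52, 95% interval -0.08 to 2.19), which is the largest difference in size among the 4 members tested, and also the least precise. The limma-voom p was 0.0663 before and 0.637 after adjustment. In the alternatives the adjusted p-value was between 0.507 and 0.999, and the log2 fold change was above 0 in the 16 that gave a value. Without KO replicate 3 the unadjusted p-value was 0.0316. With 34 fragments over all KO libraries and 15 over all WT libraries, a difference of this size was not separable from the spread between libraries.

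*Pla2g4b* (ENSMUSG00000098488.8) had 18, 20 and 13 fragments in KO, or 1.22, 1.67 and 1.01 CPM. The libraries labelled WT had 17, 10 and 13 fragments, or 1.33, 0.818 and 1.02 CPM. The groups overlapped widely. The mean was 1.30 ± 0.338 CPM in the KO and 1.06 ± 0.259 CPM in the WT libraries, with a log2 fold change of 0.27 (SE 0.36, 95% interval -0.51 to 1.05) and an adjusted p of 0.845 by limma-voom. The count of this gene is a partial one. Of its 5831 exon bases, 3878 (66.5%) are also exons of *Gm28042*, a gene model on the same strand that runs on into the exons of *Pla2g4b*, and fragments that overlap both were not counted. This left 1953 bases (33.5%) over which *Pla2g4b* could be counted. *Gm28042* itself had at most 2 fragments in a library. *Sptbn5*, a spectrin gene on the opposite strand, overlaps 792 of the bases, and its fragments were kept apart by strand.

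*Pla2g4d* (ENSMUSG00000070719.5) and *Pla2g4f* (ENSMUSG00000046971.8) were at the limit of detection and were not tested. The KO libraries held 1, 0 and 2 fragments of *Pla2g4d*, and those labelled WT held 2, 0 and 0. *Pla2g4f* was counted with 2, 0 and 0 fragments in the KO libraries and with 1, 0 and 0 in the WT libraries. A count of 0 allows up to 3 fragments, which is 0.234 to 0.254 CPM in the libraries where either gene was at 0, and the other libraries held 1 or 2 fragments. A difference between genotypes was not detectable at this depth. This bound covers counting error only. The keratinocyte keratins *Krt5* and *Krt14* were at 0 in all 6 libraries, while the other 3 of the 5 keratinocyte markers were detected, and the list summed to 12.1 to 14.1 CPM in KO and 10.3 to 12.8 CPM in WT.

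To compare levels between members, CPM was divided by the exon length in kilobases (kb). *Pla2g4e* had the highest level, with a mean over the 6 libraries of 1.30 CPM per kb and a range of 0.854 to 1.89 CPM per kb. *Pla2g4a* came next at 0.462 CPM per kb (0.294 to 0.663), followed by *Pla2g4b* at 0.202 (0.140 to 0.287) and *Pla2g4c* at 0.169 (0.0628 to 0.313). *Pla2g4d* at 0.0172 and *Pla2g4f* at 0.0111 CPM per kb were last. By genotype, the mean of *Pla2g4b* was above that of *Pla2g4c* in WT (0.181 against 0.107 CPM per kb) and just below it in KO (0.223 against 0.231). The ranges of *Pla2g4e* and *Pla2g4a* did not overlap, nor did those of *Pla2g4a* and *Pla2g4b* or of *Pla2g4c* and *Pla2g4d*. On the full exon length *Pla2g4b* and *Pla2g4c* did not differ beyond their spread, and neither did *Pla2g4d* and *Pla2g4f*. The order in the middle depended on the length used. A countable length was also used, which left out exon bases shared with another gene on the same strand. On it *Pla2g4b* stood at 0.604 CPM per countable kb (0.419 to 0.857), above the mean of *Pla2g4a* but with overlapping ranges. *Pla2g4e* stayed highest at 1.33 (0.873 to 1.94). The range of *Pla2g4b* was apart from that of *Pla2g4c*. This length was not reduced for the likeness of *Pla2g4c* to *Pla2g4c-ps*, so these 2 members were not corrected alike. Even in KO, *Pla2g4e* at 1.05 ± 0.174 CPM per kb (SD, n = 3) had the highest mean level of the family.

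Summed over the 6 members, the family stood at 1.96 ± 0.226 CPM per kb (SD, n = 3) in KO and 2.36 ± 0.381 CPM per kb (SD, n = 3) in WT, with overlapping ranges of 1.77 to 2.21 and 2.08 to 2.79. *Pla2g4e* made up 48.3% to 59.9% of this sum in the KO libraries and 54.2% to 73.4% in the libraries labelled WT. *Pla2g4c* made up 7.64% to 14.1% in KO and 2.25% to 6.92% in WT, without overlap, although its CPM values overlapped between the groups. The sum that this share is taken of includes *Pla2g4e*, so the share is no separate measurement of *Pla2g4c*. Without *Pla2g4e*, the other 5 members summed to 0.909 ± 0.140 CPM per kb (SD, n = 3) in KO and 0.813 ± 0.197 CPM per kb (SD, n = 3) in WT. These sums overlapped in range. All of them use the full exon length. On countable bases the family summed to 2.43 ± 0.329 CPM per kb in KO and 2.75 ± 0.372 in WT, and the 5 members without *Pla2g4e* to 1.35 ± 0.253 in KO and 1.17 ± 0.277 in WT (mean ± SD of 3 libraries), again with overlap. The share of *Pla2g4e* was then 39.6% to 51.3% in KO and 45.0% to 65.7% in WT, and the share of *Pla2g4c* 6.39% to 11.1% in KO and 1.97% to 6.05% in WT.

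**Figure D3:**
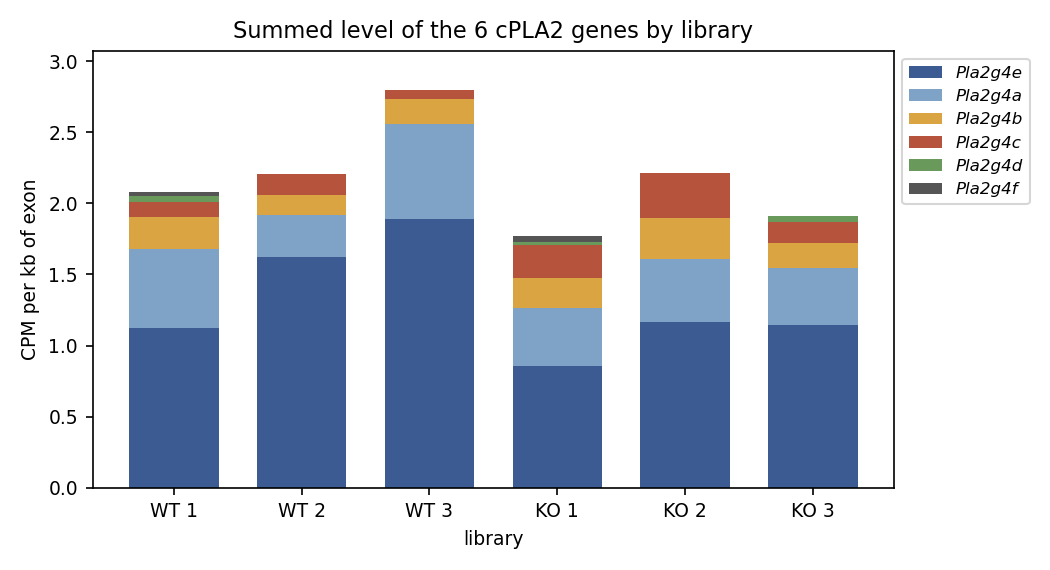
Stacked bars of the CPM per kb of full exon length (y axis) of the 6 members in each library (x axis), WT to the left and KO to the right. *Pla2g4e*, the lowest segment, is the largest in every library, at 0.854 to 1.17 CPM per kb in KO and 1.13 to 1.89 in the libraries labelled WT, while *Pla2g4d* and *Pla2g4f* are barely visible.

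The CPM values of KO and WT did not separate for any of the 4 tested members, against 2483 of the 19084 genes tested (13%). *Pla2g4d* and *Pla2g4f* were not tested and were at 0 in libraries of both groups, so they could not separate. The size of the log2 fold change of *Pla2g4c* was exceeded by 3.30% of all tested genes and that of *Pla2g4e* by 10.9%. Those of *Pla2g4b* and *Pla2g4a* were exceeded by 25.3% and 35.7%. The median log2 fold change of the 4 tested members was 0.04, beside 0.01 for all genes tested, with 2 members on each side of 0.

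**Figure D4:**
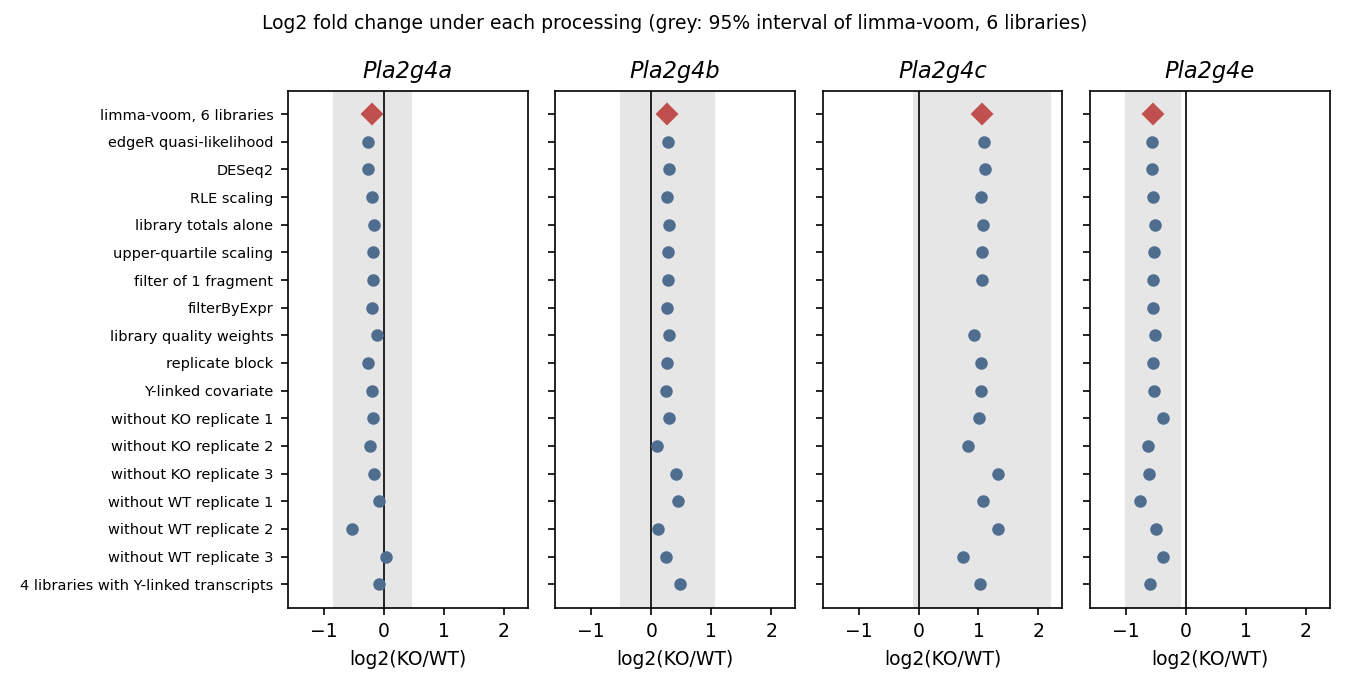
Log2 fold change of KO over WT (x axis) for the 4 tested members under each way of processing (y axis), with the fit of all 6 libraries as a diamond on its 95% interval in grey. All points of *Pla2g4e* lie between -0.76 and -0.39, those of *Pla2g4c* between 0.75 and 1.32, and 1 point of *Pla2g4a* crosses 0.

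The genes that act before and after the cPLA2 enzymes were then compared between genotypes in 5 lists with 63 genes, of which 55 could be tested. None passed the adjusted threshold in limma-voom. At an unadjusted p-value under 0.05, 3 genes were lower and 2 were higher in KO, or 9.09% of those tested, beside 7.82% of all genes. The 5 genes shared an adjusted p-value of 0.635. The median log2 fold change of the 55 genes was 0.00. The CPM values of KO and WT did not overlap for 6 of the 55 (10.9%), beside 13% of all genes tested.

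Of the enzymes that make and degrade NAPEs and NAEs, 10 of 11 were tested, with a median log2 fold change of 0.04. *Plaat1* encodes a calcium-independent N-acyltransferase that also makes NAPE. It was at 22.2, 24.0 and 26.1 CPM in KO and at 25.4, 31.7 and 31.7 CPM in the libraries labelled WT, with a log2 fold change of -0.29 (SE 0.11, unadjusted p-value 0.0210 in limma-voom). As for *Pla2g4e*, the library labelled WT replicate 1 was the lowest of its group and lay among the KO values. The other 9 genes had unadjusted p-values above 0.05. They include *Napepld*, the NAPE-hydrolysing phospholipase D, at -0.16 (SE 0.12), and *Faah*, which degrades anandamide, at 0.04 (SE 0.08).

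All 14 genes of fatty acyl remodelling of phospholipids were tested, with a median of 0.01. *Mboat7*, which puts arachidonate into phosphatidylinositol and so forms a substrate of cPLA2 alpha, was at 161, 169 and 171.0 CPM in KO and at 200.5, 199 and 170.8 CPM in the libraries labelled WT. Its log2 fold change was -0.18 (SE 0.07, unadjusted p-value 0.0280). WT replicate 3 overlapped the KO libraries. The other 13 genes did not reach an unadjusted p-value of 0.05, among them *Lpcat3*, another arachidonate-preferring acyltransferase, at 0.16 (SE 0.12).

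Of the enzymes that oxygenate arachidonate, 14 of 15 were tested, with a median of -0.05 that turned to 0.07 without WT replicate 1 and to 0.08 in the 4 libraries with Y-linked transcripts. *Ptgds*, the prostaglandin D synthase made largely by leptomeningeal and oligodendroglial cells, was at 655, 600 and 652 CPM in KO and at 596, 332 and 577 CPM in the libraries labelled WT. The KO libraries were all above the others, by little except against WT replicate 2. The log2 fold change was 0.39 (SE 0.17, unadjusted p-value 0.0379). WT replicate 2 was also the library with the lowest sum of leptomeningeal markers and the highest level of *Ttr*, given above. The 6 oligodendrocyte markers all had log2 fold changes above 0, with a median of 0.24 and no unadjusted p-value under 0.05. They summed to 2110 to 2445 CPM in KO and to 1628, 1801 and 2714 CPM in the libraries labelled WT replicates 1 to 3. The part of these cell types in the level of *Ptgds* was not tested. The cyclooxygenases *Ptgs1* and *Ptgs2* had log2 fold changes of -0.14 (SE 0.11) and -0.04 (SE 0.13).

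All 9 regulators of cPLA2 alpha were tested, with a median of 0.00. *Mknk1*, a kinase activated by MAP kinases that can phosphorylate cPLA2 alpha, was at 34.4, 31.3 and 30.9 CPM in KO and at 27.1, 24.0 and 29.0 CPM in the libraries labelled WT. The groups did not overlap, and the log2 fold change was 0.27 (SE 0.10, unadjusted p-value 0.0141). *Camk2a*, which encodes a calcium/calmodulin-dependent kinase that can phosphorylate cPLA2 alpha, had a log2 fold change of 0.00 (SE 0.08), and *Cerk*, the kinase that makes the cPLA2 alpha activator ceramide phosphate, one of 0.04 (SE 0.08).

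Of the other phospholipases A2, 8 of 14 were tested, with a median of 0.03. *Pla2g15*, the lysosomal member, was at 15.6, 20.2 and 17.4 CPM in KO and at 23.6, 23.3 and 20.6 CPM in the libraries labelled WT. All KO libraries were below all WT libraries, and the log2 fold change was -0.36 (SE 0.12, unadjusted p-value 0.00876). *Pla2g6*, the calcium-independent enzyme known from infantile neuroaxonal dystrophy, was at -0.04 (SE 0.10). The 6 genes that were not tested had at most 3 fragments in a library.

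**Figure D5:**
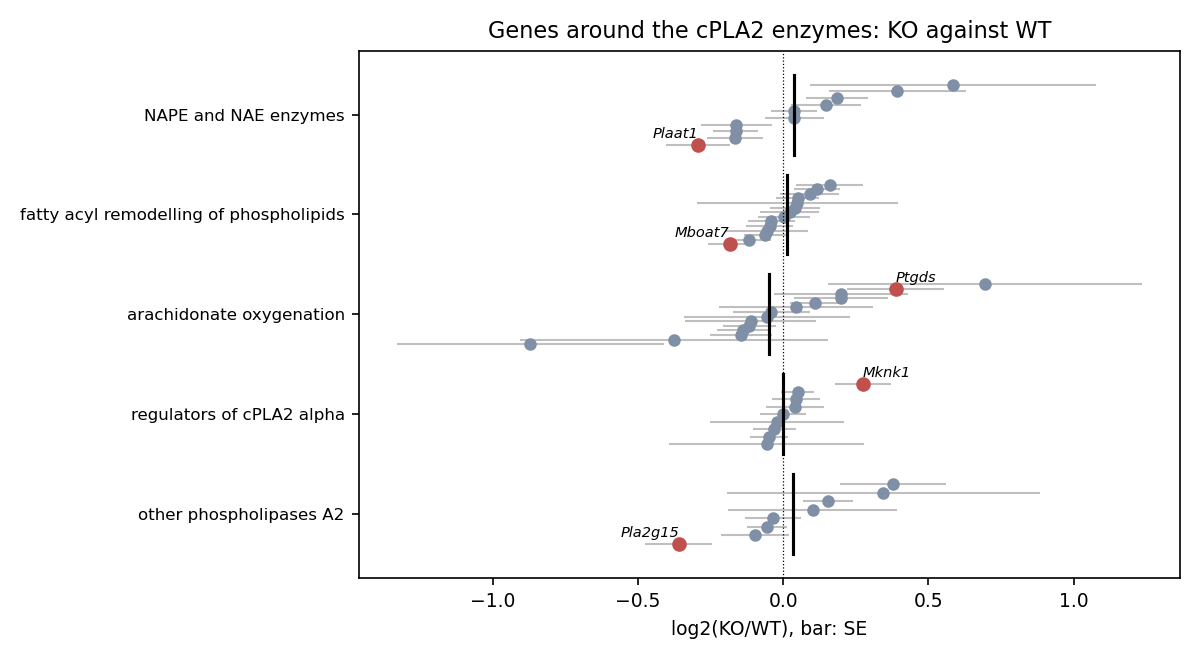
Log2 fold change of KO over WT (x axis, bars show the SE) for each tested gene of the 5 lists (y axis), with the list median as a black line. The 5 named points have an unadjusted p-value under 0.05, and the medians lie between -0.05 and 0.04.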

How the data were processed

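The deposited values are raw counts of fragments per gene, 1 table for each of 3 KO and 3 WT samples. Per the labels and file headers, the authors checked reads with FastQC 0.11.8, aligned them with STAR 2.7.9a and counted fragments over exons with featureCounts 1.6.0, reverse-stranded, on GENCODE M31 (GRCm39). The study's methods name an earlier assembly, so coordinates follow the files. Fragments mapping to several places or overlapping several genes were not counted.

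Symbols, transcripts and sequences came from GENCODE M21 (GRCm38), in which 52073 of 56923 genes matched a symbol. Genes with at least 6 fragments in at least 1 library were tested (19084), as in the study's methods, by TMM scaling in edgeR 4.0.16 and voom in limma 3.58.1 (R 4.3.3), two-sided, with Benjamini-Hochberg adjustment over all genes and a threshold of 0.05. Intervals are 95% intervals of that fit. Likeness was the root mean square difference of log2(CPM + 0.5) deviations from the mean of the 6 libraries, among genes of at least 5 CPM whose SD was not under 50% of the member's. Named genes were the members, list genes with an unadjusted p-value under 0.05, the 3 genes most like *Pla2g4a* and *Pla2g4e*, and overlapping genes. A few more list genes were named for their role, after their values were seen. Members and lists were chosen with earlier results of these data known. All 139 list genes matched, 3 through an older symbol. Alternatives were edgeR's quasi-likelihood test, DESeq2 1.42.0, other scaling, filters and weights, a replicate block, a Y-linked covariate and leaving out each library. Scripts were tested on simulated data. Counts of 11792463 to 14594230 fragments per library carry no molecular identifiers. SEs, intervals and p-values reflect the spread between libraries, and the bound for a count of 0 covers counting error only.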

Additional observations from a re-analysis of the deposited data

How the results depend on the processing

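None of the 4 tested members passed the adjusted threshold under any of the 17 alternatives, including edgeR's quasi-likelihood test, DESeq2 and the other scalings and filters. Without each library in turn, the log2 fold change ranged from -0.76 to -0.39 for *Pla2g4e*, from 0.75 to 1.32 for *Pla2g4c*, from 0.09 to 0.45 for *Pla2g4b* and from -0.52 to 0.04 for *Pla2g4a*. The value of 0.041, without WT replicate 3, turned the direction of *Pla2g4a*, and the cause was not tested. *Pla2g4c* was not among the 15902 genes kept by filterByExpr. The number of genes with an adjusted p-value under 0.05 was 0 in limma-voom, 1 in DESeq2, 22 with the Y-linked covariate, 3 in the 4 libraries with Y-linked transcripts (chosen after seeing the data), and 0 to 1 without each library. Before adjustment, 1492 genes were under 0.05, against 902 in DESeq2, 696 in those 4 libraries and 782 to 2239 without each library (830 without KO replicate 1, 782 without WT replicate 2, 2239 without WT replicate 3). With library totals as the only scaling, 418 of 1489 such genes were lower in KO, against 657 of 1492, and the median log2 fold change of all genes was 0.03 in place of 0.01. Without WT replicate 3 the balance turned, with 1211 genes lower and 1028 higher in KO. The lower genes numbered 318 without KO replicate 1 and 348 without WT replicate 2. The labels do not say whether equal replicate numbers pair the samples. Correlations of deviations between same-numbered samples were 0.43, 0.11 and -0.03 for replicates 1 to 3. Y-linked transcripts summed to 0.157 CPM or less in replicate 1 of both groups, and were present in replicates 2 and 3 of both. With a replicate block, the log2 fold change of *Pla2g4e* was -0.55 (limma-voom p 0.00278 before and 0.353 after adjustment). That of *Pla2g4c* was 1.04, and 1693 genes were under 0.05 before adjustment. Of 60 recomputed levels per kb, 2 moved by more than the SD between replicates, both of *Pla2g4b* with the countable exon length. Of 85 recomputed list medians, 3 moved by more than that spread: arachidonate oxygenation to 0.07 without WT replicate 1 and to 0.08 in the 4 libraries, and acyl remodelling to -0.05 without WT replicate 2. Depth limits *Pla2g4d* and *Pla2g4f* most, and *Pla2g4c* with 3 to 14 fragments per library.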
